A study of Mus musculus with 12 samples.

Results

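The MHC class II genes described here are 7 genes of antigen presentation, chosen by name: *H2-Aa*, *H2-Ab1*, *H2-Eb1*, *Cd74*, *Ciita*, *H2-DMa* and *H2-DMb1*. All 7 had a row among the 25263 gene symbols of the table, and 6 of them passed the filter on low values; *Ciita* did not. MHC class II molecules are pairs of an alpha and a beta chain that carry peptides from endocytosed proteins to the cell surface, where CD4 T cells read them. *H2-Aa* and *H2-Ab1* encode the alpha and beta chain of I-A, and *H2-Eb1* encodes the beta chain of I-E, whose alpha gene is defective in mice of the C57BL/6 strain. *Cd74* encodes the invariant chain, which escorts new class II molecules to the endosome, and *H2-DMa* and *H2-DMb1* encode the H2-DM pair that exchanges its remnant for peptide. *Ciita* encodes the coactivator that switches on class II promoters, which it reaches through the factors bound at the X and Y boxes. Class II is best known from dendritic cells, B cells and macrophages, and some monocytic leukemia cells also express it.

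The 12 libraries came from leukemic cells of the bone marrow of adult mice, in a series on the need for the Hoxa cluster. The leukemia was of the MLL-AF9 (MA9) type, in which the histone methyltransferase MLL is fused to AF9. All cells were grown overnight with SCF and with the cytokines GM-CSF, IL-6 and IL-3, infected with a retrovirus and sorted for high GFP. There were 4 groups of 3 libraries. WT-GFP and WT-Cre had an intact Hoxa cluster (strain label C57BL/6) and received the control virus or Cre recombinase. Hoxa-flox and Hoxa-del had a cluster flanked by loxP sites (strain label C57BL/6J) and received the control virus or Cre. The labels do not say how many separate leukemias or cultures the replicates came from, so the p-values rest on the spread among these libraries alone, which may be technical. Genotype, strain label and the origin of each leukemia cannot be told apart in any comparison of floxed with WT cells.

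Levels are in FPKM (fragments counted per kilobase of a transcript and per library size), and changes are differences of mean log2(FPKM + 1), which understate the change of low genes. A gene was called when its adjusted p was under 0.05 in limma with Benjamini-Hochberg adjustment over 13169 genes. Estimated depth ran from 3.95 M fragments (WT-Cre 2) to 18.69 M (WT-GFP 3). *Hoxa9*, a gene of the targeted cluster, averaged 106 ± 19.3 FPKM (SD, n = 3) in Hoxa-del against 237 ± 20.1 in Hoxa-flox, lower but not absent after Cre. The 6 floxed libraries fell into a pair of sets that cut across the Cre groups on the first principal component, which held 64.3% of their variance with all listed genes left out. Set A was Hoxa-flox 1, Hoxa-flox 2 and Hoxa-del 2, and set B was Hoxa-flox 3, Hoxa-del 1 and Hoxa-del 3. The sets came from the values, so differences between them are given with no test. Their depths overlapped, at 6.36 to 13.31 M fragments in set A and 7.70 to 15.13 M in set B.

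Compared with WT cells, the class II genes of the floxed leukemias did not share a pattern. Among the floxed libraries alone, every tested member was higher in each set A library than in each set B library. *Cd74*, *H2-Aa* and *H2-Eb1* were lower than in WT cells whether or not Cre had been given. For the row with the highest mean the difference was 5.91 to 24.9 times in mean FPKM. *Ciita* was at a few fragments per library. *H2-Ab1*, *H2-DMa* and *H2-DMb1* were not called in either comparison with WT cells, and in set A they stood above all WT libraries. The share of all genes with set A above all WT libraries was not computed, so this order is a description only. The H2-DO genes *H2-Oa* and *H2-Ob*, near 0 in WT cells, were called higher in Hoxa-flox, and *H2-Oa* also in Hoxa-del.

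In Hoxa-flox against WT-GFP 3 of the 6 tested members were called lower and 0 higher, where 13.5% of all genes tested were called lower and 13.3% higher. In Hoxa-del against WT-Cre the same 3 members were called lower and 0 higher, with 14.2% of all genes called lower and 13.0% higher. The members called in both comparisons were *Cd74*, *H2-Aa* and *H2-Eb1*, and 10.9% of all genes were called lower in both. The median change over the 6 tested members was -0.94 and -0.91, against 0.00060 and 0.0038 over all genes. With array weights all 6 tested members were called in Hoxa-flox against WT-GFP, *H2-Ab1*, *H2-DMa* and *H2-DMb1* as higher, among 9186 genes called. The comparisons of floxed with WT cells have no library in common. In such bulk samples fewer cells that express a gene and less RNA per cell cannot be told apart.

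**Figure D1:**
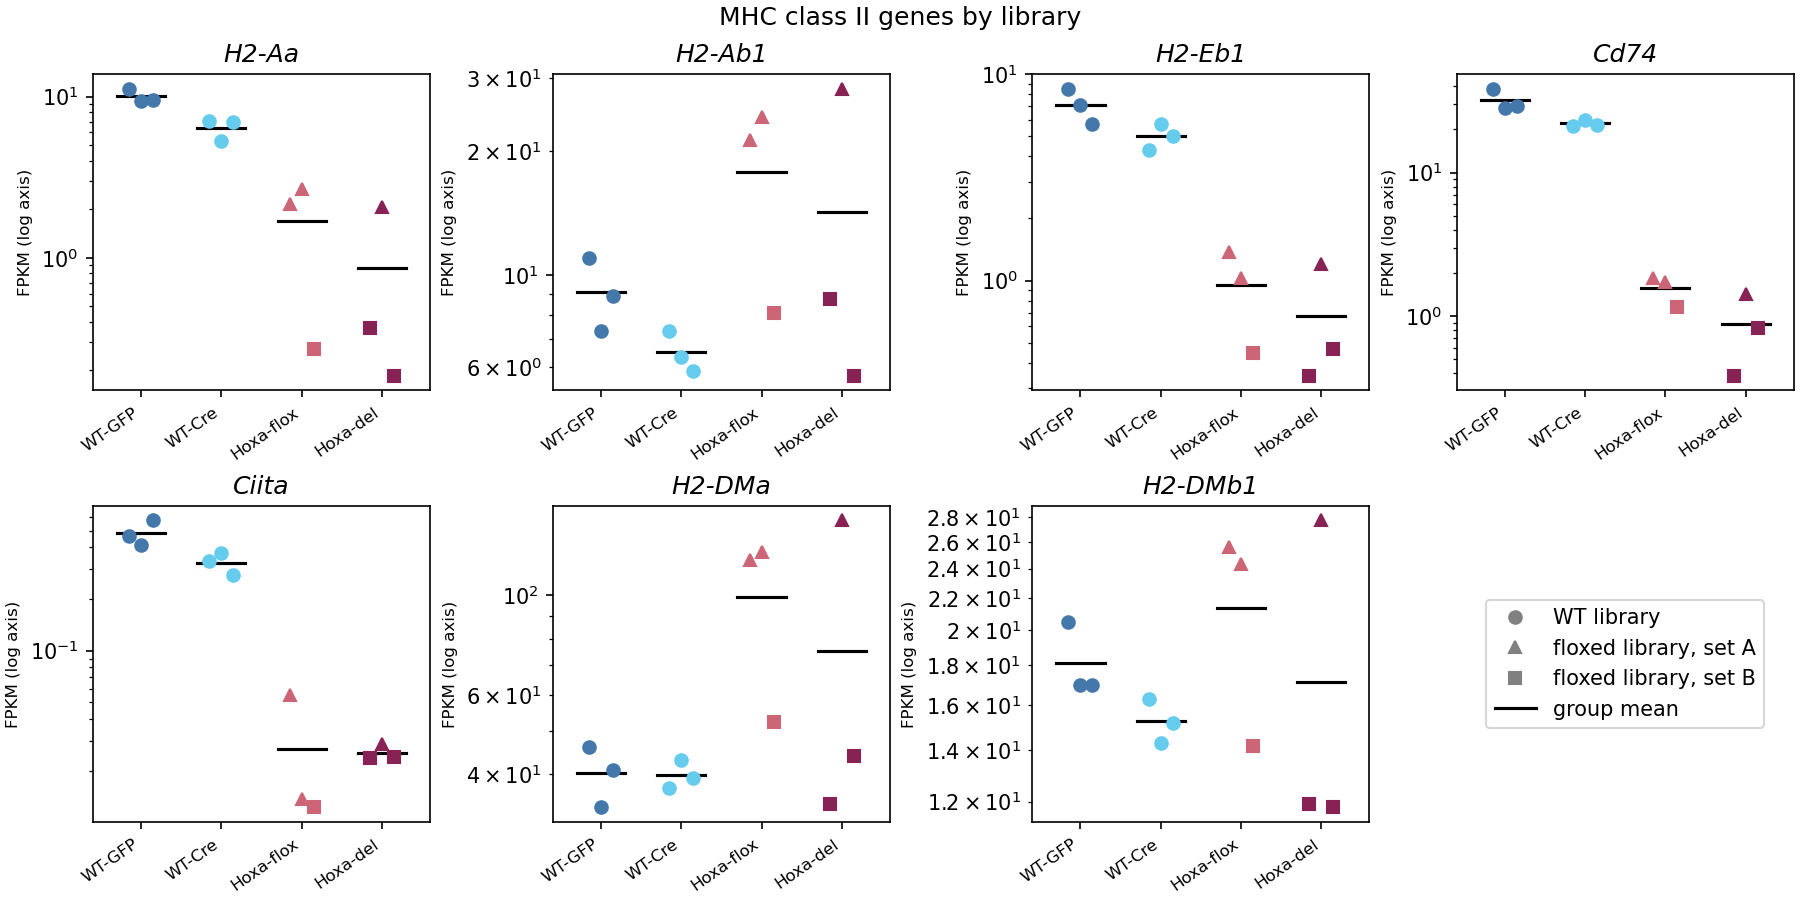
FPKM of the 7 MHC class II genes on log axes, 1 point per library; circles are WT libraries, triangles and squares the floxed libraries of sets A and B, and bars the mean of 3 libraries. Cd74, H2-Aa, H2-Eb1 and Ciita lie below all WT libraries in all floxed libraries, while H2-Ab1, H2-DMa and H2-DMb1 lie above all WT libraries in set A. For what share of all genes set A lies above all WT libraries was not computed.

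Promoter sequence is shown for class II genes that were called in opposite directions, to set their X and Y boxes side by side, and for *H2-DMa*, which was not called. Of the 7 members, 4 had a promoter window (250 bases before to 50 after the start) in RefSeq on GRCm38.p6, and *H2-Oa* and *H2-Ob* also had one. The core letters of the X box searched were GNAAC, followed after 20 to 40 bases by the Y box letters TGATTGG, on both strands; the letters were chosen after these sequences had been seen. The stretches below run 5′ to 3′ on the gene's strand from 120 to 31 bases before the RefSeq start, on chromosome 17, with both boxes in capitals.
*H2-Aa* (chr17:34287854-34287943, minus strand): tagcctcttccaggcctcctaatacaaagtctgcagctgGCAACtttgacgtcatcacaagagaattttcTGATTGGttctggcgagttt
*H2-Eb1* (chr17:34305747-34305836, plus strand): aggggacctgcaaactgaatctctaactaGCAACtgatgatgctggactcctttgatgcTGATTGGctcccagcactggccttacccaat
*H2-Oa* (chr17:34092259-34092348, plus strand): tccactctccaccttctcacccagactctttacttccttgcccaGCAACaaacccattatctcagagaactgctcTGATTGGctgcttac
*H2-Ob* (chr17:34238785-34238874, plus strand): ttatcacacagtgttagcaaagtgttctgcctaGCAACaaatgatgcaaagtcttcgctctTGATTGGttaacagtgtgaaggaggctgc
*H2-DMa* (chr17:34122712-34122801, plus strand, without the pair of boxes): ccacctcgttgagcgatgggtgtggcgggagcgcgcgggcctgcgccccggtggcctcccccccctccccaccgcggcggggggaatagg

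The X core and Y box letters lay 26 bases apart in *H2-Aa*, 25 in *H2-Eb1*, 26 in *H2-Oa* and 23 in *H2-Ob*. *H2-DMb1* held the same pair 26 bases apart, with its X core in the stretch GTAACtgatgatgctaggctgattcactca (chr17:34153097-34153126, plus strand, the X core letters in capitals; GENCODE places this stretch in the first exon). Its Y box letters began 63 bases before the RefSeq start. The pair stood in 0.572% of 32851 promoter windows of this length, TGATTGG in 7.82% and GNAAC in 84.8%. Thus genes that were lower in the floxed cells (*H2-Aa*, *H2-Eb1*), higher (*H2-Oa*, and *H2-Ob* in Hoxa-flox) or not called (*H2-DMb1*) all held the pair. The letters TGATTGG were in neither window of *H2-DMa*. The window of the stretch shown (chr17:34122582-34122881) also holds the start of *Brd2* on the minus strand, at 34122634. Both windows lie inside the annotated span of *H2-DMa* (chr17:34119541-34139101), so a promoter elsewhere at this gene was not searched. Whether *H2-DMa* holds the pair there was not tested. A match of letters is a description and does not show that a factor binds there.

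*Cd74* (chr18:60803848-60812652, plus strand, GRCm38) was the member with the largest difference. The WT-GFP libraries held 38.5, 28.3 and 29.3 FPKM and the WT-Cre libraries 21.0, 23.4 and 21.6. The Hoxa-flox libraries held 1.84, 1.72 and 1.15 FPKM and the Hoxa-del libraries 0.385, 1.43 and 0.832. Every floxed library was thus far below every WT library (groups apart in this direction held for 23.3% of all genes in Hoxa-flox against WT-GFP and 20.7% in Hoxa-del against WT-Cre), and Hoxa-flox and Hoxa-del overlapped. The mean was 20.4 times higher in WT-GFP than in Hoxa-flox (log2 change -3.68, SE 0.21, adjusted p = 3.20e-07, limma) and 24.9 times higher in WT-Cre than in Hoxa-del (-3.65, SE 0.21, adjusted p = 3.47e-07, limma). By its mean *Cd74* stood at percentile 79.2 of the genes tested in WT-GFP, but at 4.2 in Hoxa-del and 12.5 in Hoxa-flox. The table holds 3 further rows named *Cd74*, each with a mean under 1 FPKM in every group; with the mean over all its rows the changes were -2.43 and -1.96 and still passed.

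The alpha chain of I-A was lower in the same libraries. *H2-Aa* (chr17:34282744-34287823, minus strand) held 11.2, 9.36 and 9.50 FPKM in WT-GFP and 7.03, 5.28 and 6.93 in WT-Cre. The Hoxa-flox libraries held 2.15, 2.67 and 0.272 FPKM and the Hoxa-del libraries 0.364, 2.06 and 0.185. All floxed libraries lay below all WT libraries, with the 3 libraries of set A well above those of set B. *H2-Aa* was 5.91 times higher in WT-GFP than in Hoxa-flox (log2 change -2.17, SE 0.41, adjusted p = 0.00256, limma) and 7.38 times higher in WT-Cre than in Hoxa-del (-2.11, SE 0.41, adjusted p = 0.00312, limma). With a pseudocount of 0.1 the latter change was -3.29.

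*H2-Eb1* (chr17:34305867-34316674, plus strand) held 8.52, 7.07 and 5.77 FPKM in WT-GFP and 4.29, 5.77 and 5.02 in WT-Cre. It held 1.38, 1.03 and 0.446 FPKM in Hoxa-flox and 0.346, 1.20 and 0.466 in Hoxa-del. As for *Cd74*, each floxed library was below each WT library and the floxed groups overlapped. WT-GFP was 7.46 times higher than Hoxa-flox (log2 change -2.07, SE 0.24, adjusted p = 0.000104, limma), and WT-Cre was 7.50 times higher than Hoxa-del (-1.88, SE 0.24, adjusted p = 0.000216, limma; -2.88 with a pseudocount of 0.1). A second *H2-Eb1* row exists, and with the mean of both rows the changes were -1.19 and -1.16 and still passed. In Hoxa-flox the second row averaged 1.22 FPKM, above the 0.954 of the row used, so the size of the difference depends on the row taken. An antisense gene, *Gm20513*, overlaps *H2-Eb1*, and whether reads were counted by strand is not given in the sources used here, so its reads could be split between them. No row was found for the alpha chain genes *H2-Ea* and *H2-Ea-ps*.

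*Ciita* (chr16:10480059-10528418, plus strand), the coactivator of these genes, was low in all libraries and did not enter the fit. It held 0.464, 0.413 and 0.573 FPKM in WT-GFP and 0.333, 0.368 and 0.276 in WT-Cre. It held 0.0549, 0.0136 and 0.0122 FPKM in Hoxa-flox and 0.0236, 0.0287 and 0.0242 in Hoxa-del. All floxed libraries were below the WT libraries, and within the floxed cells Hoxa-del lay inside the range of Hoxa-flox.

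These low values are whole multiples of what 1 fragment is worth in each library, within 0.086 of a fragment. They correspond to 32, 33 and 59 *Ciita* fragments in WT-GFP, 23, 8 and 18 in WT-Cre, 4, 1 and 1 in Hoxa-flox, and 1, 1 and 2 in Hoxa-del. Per 1 M fragments this is 2.71 (exact 95% Poisson interval 2.25 to 3.23), 1.73 (1.28 to 2.29), 0.145 (0.0533 to 0.316) and 0.137 (0.0373 to 0.351). The ratio of WT-GFP to Hoxa-flox was 18.7 (8.34 to 51.9) and that of WT-Cre to Hoxa-del 12.6 (4.63 to 48.2). These intervals cover counting error only. An exact permutation test, two-sided, gave p = 0.1 for each of these differences, the smallest that 3 against 3 libraries allow. The gene *Dexi* overlaps *Ciita* on the other strand, so these few fragments are uncertain in the floxed cells.

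*H2-Ab1* (chr17:34257689-34269419, plus strand) encodes the partner of the *H2-Aa* chain but did not share its difference from WT cells. It held 11.0, 7.35 and 8.91 FPKM in WT-GFP and 7.32, 6.35 and 5.88 in WT-Cre. It held 21.2, 24.2 and 8.12 FPKM in Hoxa-flox and 8.76, 28.3 and 5.72 in Hoxa-del. Libraries of set A were above all WT libraries, and the set B libraries lay among or just below them, so that the floxed and WT groups overlapped. The change was 0.79 (SE 0.50, adjusted p = 0.276, limma) in Hoxa-flox against WT-GFP and 0.73 (SE 0.50, adjusted p = 0.309, limma) in Hoxa-del against WT-Cre.

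The ratio of *H2-Ab1* to *H2-Aa*, both in FPKM and so per length, was 0.785 to 1.20 in the 6 WT libraries. It was 9.04 to 13.8 in set A and 24.1 to 30.9 in set B. In WT cells the chains of I-A were thus near equal, and in each floxed library the beta chain transcript exceeded the alpha chain transcript by at least 9.04 times. The ratio of *Cd74* to *H2-Ab1* was 2.88 to 3.85 in WT libraries and 0.0439 to 0.146 in floxed libraries. That of *H2-Eb1* to *H2-Ab1* was 0.586 to 0.962 and 0.0395 to 0.0815.

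**Figure D2:**
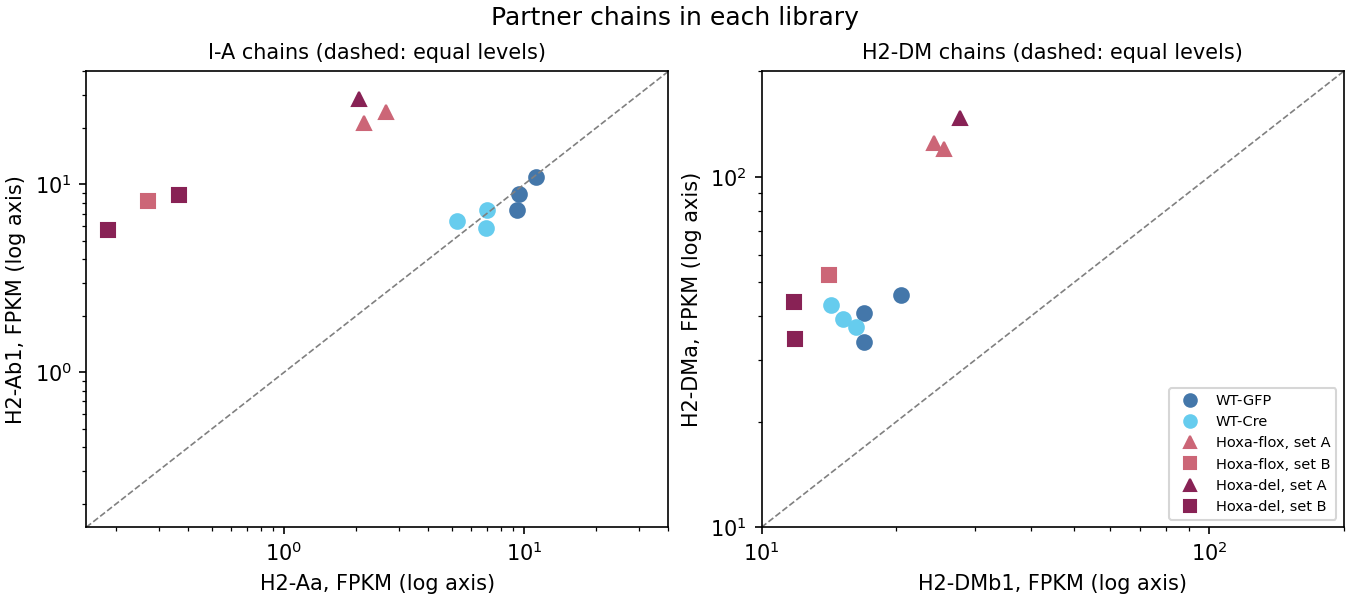
Levels of partner chains in each of the 12 libraries in FPKM on log axes: H2-Ab1 against H2-Aa (left) and H2-DMa against H2-DMb1 (right); each point is a library and the dashed line marks equal levels. The WT libraries lie near the line for I-A (ratio 0.785 to 1.20) and the floxed libraries far above it (9.04 to 30.9).

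*H2-DMa*, the alpha chain of the H2-DM pair, was the highest of the 7 members in each of the 12 libraries. The gene (chr17:34119541-34139101, plus strand) held 45.9, 33.8 and 40.9 FPKM in WT-GFP and 37.4, 43.1 and 39.2 in WT-Cre. It held 120, 125 and 52.4 FPKM in Hoxa-flox and 34.4, 147 and 43.9 in Hoxa-del. All Hoxa-flox libraries were above all WT-GFP libraries, as they were for 23.9% of all genes, while Hoxa-del and WT-Cre overlapped. The change of 1.19 in Hoxa-flox against WT-GFP did not pass (SE 0.47, adjusted p = 0.0870, limma), nor did that of 0.60 in Hoxa-del against WT-Cre (SE 0.47, adjusted p = 0.388, limma). Without Hoxa-flox 3 the former was 1.59 and passed (adjusted p = 0.0259, limma). *Brd2* and antisense genes overlap *H2-DMa*, which makes its level uncertain.

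*H2-DMb1* (chr17:34153072-34160230, plus strand) held 20.5, 16.96 and 16.96 FPKM in WT-GFP and 16.3, 14.3 and 15.2 in WT-Cre. It held 25.6, 24.3 and 14.2 FPKM in Hoxa-flox and 11.9, 27.7 and 11.8 in Hoxa-del. Set A was above the WT libraries and set B below them, so the groups overlapped and the changes were 0.19 (SE 0.30, adjusted p = 0.697, limma) and 0.05 (SE 0.30, adjusted p = 0.928, limma). *H2-DMa* was 1.99 to 3.01 times *H2-DMb1* in WT libraries, 2.89 to 3.73 times in set B and 4.67 to 5.30 times in set A. Transcripts of *H2-DMb1* and its neighbour *H2-DMb2* share 95.2% of 1094 aligned bases, so reads could be split between them. *H2-DMb2* was low, averaging 2.08 FPKM in Hoxa-flox against 2.14 in WT-GFP and 2.06 in Hoxa-del against 4.13 in WT-Cre, and was not called (adjusted p = 0.856 and 0.134, limma). Every WT-Cre library held more *H2-DMb2* than every WT-GFP library.

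In the fit without array weights no member passed the threshold with Cre, in floxed or in WT cells. In floxed cells Cre came together with deletion at the Hoxa cluster, so Hoxa-del against Hoxa-flox does not measure Cre alone. In Hoxa-del against Hoxa-flox 0 of 6 members were called (limma adjusted p 0.729 to 0.786, 1 of them at an unadjusted p under 0.05), where 0.0304% of all genes (4 genes) were called. Without Hoxa-del 2, 787 genes were called, and again 0 members. With array weights, which give the libraries unequal weight, 5 members were called lower, all but *H2-Eb1*, among 5173 genes called. *Cd74* changed by -0.48 (SE 0.21, unadjusted p = 0.0441, adjusted p = 0.729, limma). The floxed groups overlapped for all 6 tested members, and the members' median was -0.47 against -0.06 over all genes. Each of these groups held libraries of both sets.

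In WT-Cre against WT-GFP 0 of 6 members were called as well (adjusted p = 1 for each, limma, 1 at an unadjusted p under 0.05), where 0.0152% of all genes were called. The fit shares 1 spread over the 4 groups, so these tests also carry the spread among the floxed libraries. The absence of calls is therefore not evidence that WT cells were unchanged. Under the 13 alternatives no member passed either, with the lowest adjusted p at 0.0679 for *Cd74* (limma). For 5 of the 6 tested members, all but *H2-DMa*, every WT-Cre library lay below every WT-GFP library, as it did for 16.3% of all genes. *Ciita* showed the same order, at 0.639 times the WT-GFP level per 1 M fragments (interval 0.449 to 0.896, counting error only; exact permutation p = 0.1). *Cd74* had the smallest unadjusted p (0.0336; log2 change -0.51, SE 0.21, adjusted p = 1, limma). The median change of the 6 members was -0.42, against -0.03 over all genes. The difference of the Cre changes between floxed and WT cells was called for 0 members (limma, 0 at an unadjusted p under 0.05), where 0.00759% of all genes were called; with array weights 4 members were called, among 3452 genes.

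The order of the group means was the same for *Cd74*, *H2-Aa*, *H2-Eb1* and *Ciita*: WT-GFP, WT-Cre, Hoxa-flox, Hoxa-del. In this order WT-GFP and WT-Cre were not called different, and Hoxa-flox and Hoxa-del overlapped; WT-Cre and Hoxa-flox did not overlap. For *H2-Ab1* and *H2-DMa* the order was Hoxa-flox, Hoxa-del, WT-GFP, WT-Cre, and for *H2-DMb1* Hoxa-flox, WT-GFP, Hoxa-del, WT-Cre. Of these neighbours, those that were compared were not called different, and Hoxa-del overlapped WT-GFP.

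Within the floxed cells the tested members differed between the sets. All 6 tested members were higher in every set A library than in every set B library, which held for 31.7% of all genes tested. For 4 of the 6, *H2-Aa*, *H2-Ab1*, *H2-DMa* and *H2-Eb1*, every set A library held over 2 times the level of every set B library, which held for 3.2% of all genes. The set means differed by 8.37 times for *H2-Aa*, 3.26 for *H2-Ab1*, 2.99 for *H2-DMa*, 2.87 for *H2-Eb1*, 2.11 for *Cd74* and 2.05 for *H2-DMb1*. *Ciita*, with 1 to 4 fragments per library, overlapped between the sets. Summed over the 7 members, the libraries held 172 to 208 FPKM in set A, 56.2 to 76.6 in set B and 93.7 to 136 in WT cells. The level of *H2-Aa* in set A, 2.06 to 2.67 FPKM, was still under the lowest WT library at 5.28.

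**Figure D3:**
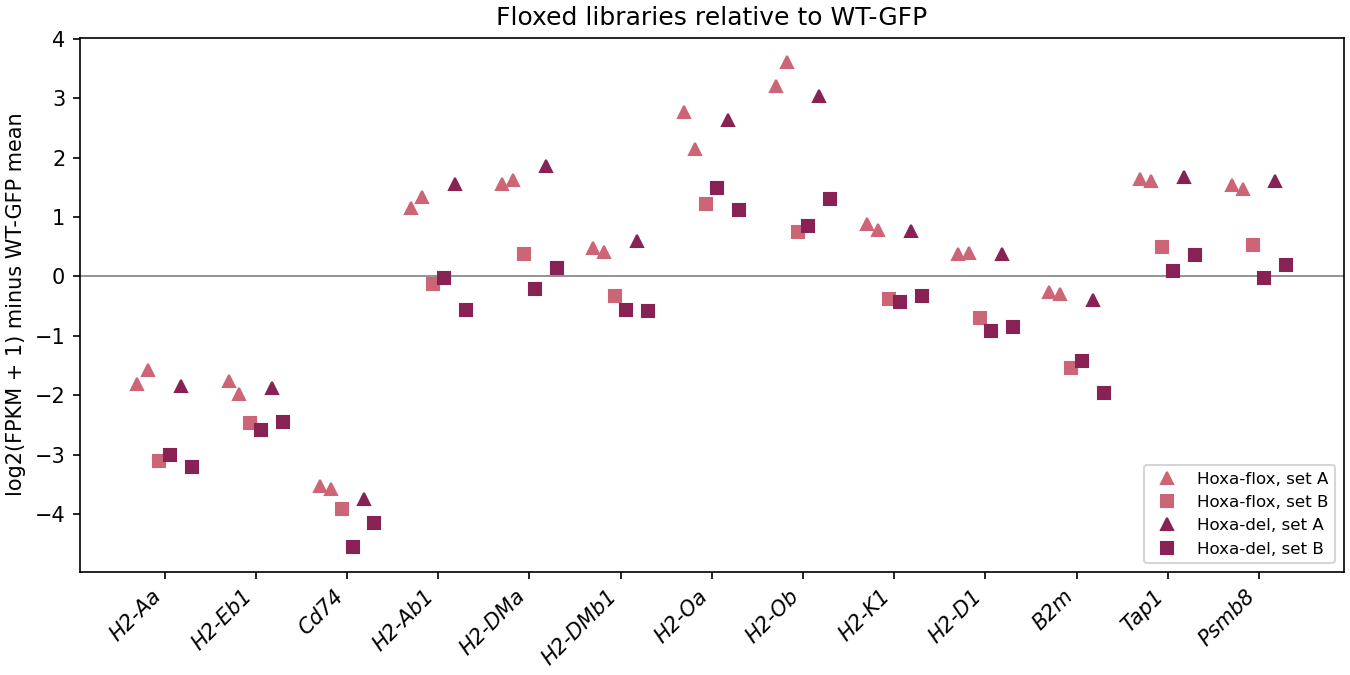
Each floxed library minus the WT-GFP mean on the log2(FPKM + 1) scale, for tested members, the H2-DO genes and 5 genes of class I presentation (H2-K1, H2-D1, B2m, Tap1 and Psmb8); triangles are set A and squares set B. Within each gene plotted the set A libraries lie above the set B libraries, whether the gene lies below WT-GFP (H2-Aa, H2-Eb1, Cd74) or above it (H2-Oa, H2-Ob).

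Correlations among the members describe both patterns, over libraries that share group and set. Over the 12 libraries Pearson's r on log2(FPKM + 1) was 0.987 between *Cd74* and *H2-Eb1*, 0.942 between *Cd74* and *H2-Aa*, and 0.966 between *Cd74* and *Ciita*. It was 0.934 between *H2-Ab1* and *H2-DMa*, but -0.11 between *H2-Ab1* and its partner *H2-Aa*. Over the 6 floxed libraries alone *H2-Ab1* and *H2-Aa* gave 0.971, and over the 6 WT libraries alone 0.839. *Cd74* and *Ciita* gave 0.321 over the floxed libraries, where *Ciita* had 1 to 4 fragments each, and 0.732 over the WT libraries.

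Among 10720 genes the ones most like the mean of the members over the 12 libraries were *Rac2* (r = 0.993), *Sh3bgrl3* (0.991), *Twf2* (0.991), *Adssl1* (0.990) and *Tsc22d4* (0.990). The most opposite were *Rev3l* (-0.984), *Peli1* (-0.984) and *Jmjd1c* (-0.981). *Rac2*, a small GTPase of blood cells, held 289 to 344 FPKM in WT-GFP, 211 to 222 in set A and 128 to 150 in set B. The mean of the members combines more than 1 pattern. The gene most like *Cd74* alone was *Sipa1* (r = 0.998), and the one most like *H2-Ab1* alone was *Tha1* (0.988), each among 10725 genes.

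Of 3 tested class II chain genes outside the 7 members, 2 were called higher in Hoxa-flox against WT-GFP and 1 in Hoxa-del against WT-Cre, and 0 lower. The shares over all genes were 13.3% and 13.0% called higher, and 13.5% and 14.2% called lower. *H2-Oa* and *H2-Ob* encode H2-DO, a modulator that binds H2-DM and limits peptide exchange. *H2-Oa* held 9.53, 5.83 and 2.59 FPKM in Hoxa-flox and 3.30, 8.57 and 2.34 in Hoxa-del, against at most 0.598 in any WT library. All floxed libraries were above all WT libraries, and the change passed in both comparisons (2.05, SE 0.43, adjusted p = 0.00465, and 1.92, SE 0.43, adjusted p = 0.00692, limma). An antisense gene, *BC051537*, overlaps *H2-Oa*, which makes its level uncertain. *H2-Ob* held 11.1, 15.0 and 1.19 FPKM in Hoxa-flox and 1.37, 9.75 and 2.22 in Hoxa-del, against at most 0.577 in WT libraries. It passed in Hoxa-flox against WT-GFP (2.52, SE 0.69, adjusted p = 0.0192) and did not in Hoxa-del against WT-Cre (1.64, SE 0.69, adjusted p = 0.102, limma).

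*H2-Eb2*, a beta chain gene next to *H2-Eb1*, was below the filter. It came to 1 fragment over the 6 WT libraries, and to 11, 18 and 12 in Hoxa-flox and 2, 1 and 10 in Hoxa-del. Of these adjacent beta chain genes *H2-Eb1* was thus higher in WT cells, and *H2-Eb2* had its fragments almost wholly in floxed cells.

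Along the class II region of chromosome 17 the genes called lower stood side by side among others that were not called lower. In chromosomal order the coding genes with a row were *H2-Oa*, *Brd2*, *H2-DMa*, *H2-DMb2*, *H2-DMb1*, *Psmb9*, *Tap1*, *Psmb8*, *Tap2*, *H2-Ob*, *H2-Ab1*, *H2-Aa*, *H2-Eb1* and *H2-Eb2*. *H2-Aa* and *H2-Eb1* were called lower in both comparisons, and they are neighbours between *H2-Ab1* and *H2-Eb2*. *Tap1*, which pumps peptides for class I molecules, and *Psmb8*, an immunoproteasome subunit, were called higher in Hoxa-flox against WT-GFP (1.25, SE 0.39, adjusted p = 0.0354, and 1.18, SE 0.38, adjusted p = 0.0424, limma). Neither was called in Hoxa-del against WT-Cre (adjusted p = 0.127 and 0.146, limma). *Psmb9* overlaps *Tap1* on the other strand and the antisense gene *Gm20496* overlaps *Psmb8*, so their levels are uncertain too. Of 11 tested neighbours of the class II genes in the wider MHC 3 were called higher and 1 lower in Hoxa-flox against WT-GFP, and 0 and 1 in Hoxa-del against WT-Cre. The shares over all genes were 13.3% higher and 13.5% lower in the former, and 13.0% and 14.2% in the latter.

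**Figure D4:**
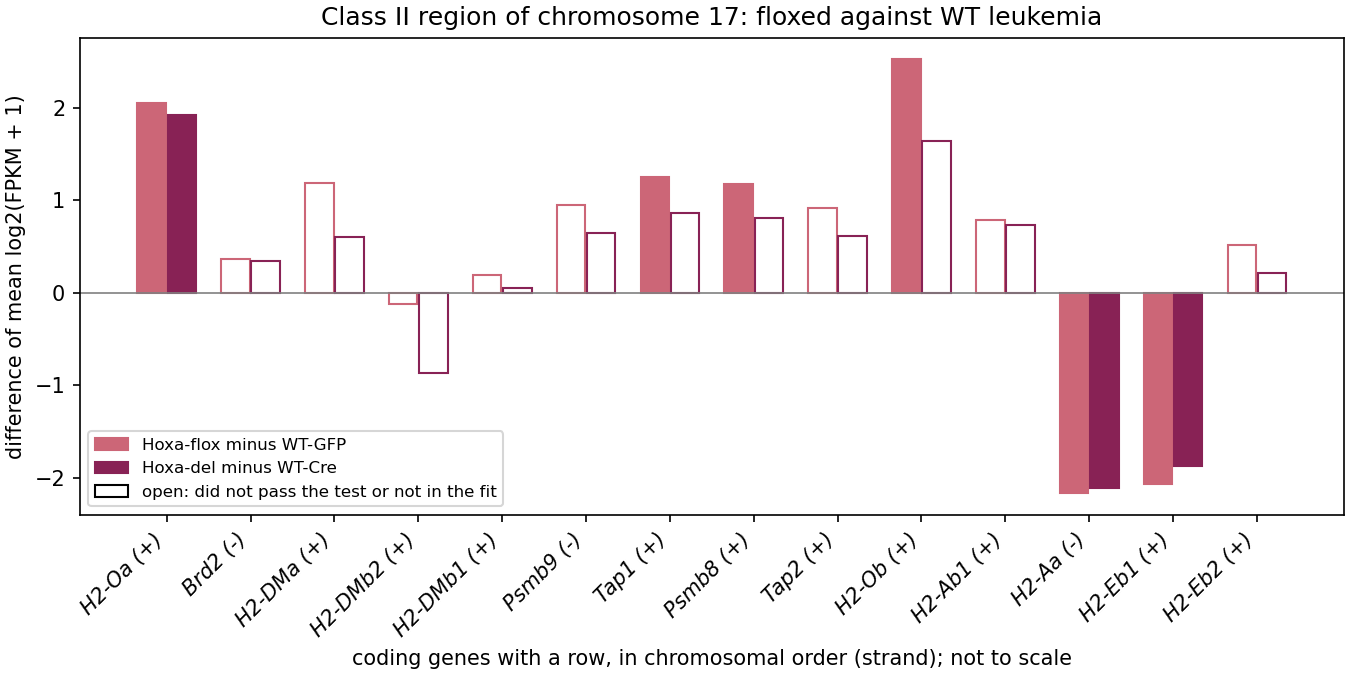
Difference of mean log2(FPKM + 1) for the coding genes of the class II region in chromosomal order, Hoxa-flox minus WT-GFP and Hoxa-del minus WT-Cre; filled bars passed the test and open bars did not or were not in the fit. H2-Aa and H2-Eb1 are the bars near -2, beside H2-Ab1 at 0.79 and 0.73, with H2-Oa and H2-Ob rising to 2.05 and 2.52 in Hoxa-flox.

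The factors that bind class II promoters were mostly not called. The median change of the 7 tested (RFX, NF-Y and CREB subunits) was -0.03 in Hoxa-flox against WT-GFP and -0.13 in Hoxa-del against WT-Cre. In these comparisons 0 were called higher, where 13.3% and 13.0% of all genes were. Of the 7 factors 1 was called lower in both comparisons, as were 10.9% of all genes. It was *Rfx5*, the large subunit of the X box factor RFX, at 8.06 ± 0.927 FPKM in Hoxa-flox against 13.2 ± 2.53 in WT-GFP (SD, n = 3; -0.64, SE 0.16, adjusted p = 0.0111), and it was also lower in Hoxa-del against WT-Cre (-0.72, SE 0.16, adjusted p = 0.00616, limma). Its set A and set B means, 8.23 and 7.08 FPKM, were close.

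In the route from interferon gamma to *Ciita*, 10 genes were tested. *Jak2*, a kinase of the receptor, was higher in Hoxa-flox against WT-GFP (0.46, SE 0.14, adjusted p = 0.0278, limma). *Ifngr2*, a chain of the receptor, was lower in Hoxa-flox against WT-GFP (-1.06, SE 0.21, adjusted p = 0.00372) and in Hoxa-del against WT-Cre (-1.27, SE 0.21, adjusted p = 0.00121, limma). No other gene of the list was called in either comparison. Of the 10 genes 8 were higher in every set A library than in every set B library, which held for 31.7% of all genes.

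Most of the tested genes that clear the invariant chain and cut antigen were called lower. Of 8 tested genes 6 were called lower in Hoxa-flox against WT-GFP and 7 in Hoxa-del against WT-Cre, 0 higher, with medians of -1.72 and -1.68. Over all genes tested 13.5% and 14.2% were called lower in these comparisons. *Ctss*, cathepsin S, the protease of the late steps of invariant chain cleavage, held 8.78 ± 4.26 FPKM in Hoxa-flox against 119 ± 0.839 in WT-GFP (SD, n = 3; -3.73, SE 0.31, adjusted p = 7.57e-06, limma). *Lgmn*, an endosomal protease that cuts at asparagine, held 1.17 ± 0.368 against 31.9 ± 2.32 (-3.94, SE 0.20, adjusted p = 1.42e-07, limma). A second *Lgmn* row, not used here, held 1.90, 2.00 and 0.198 FPKM in Hoxa-flox against 0.867, 0.819 and 0.868 in WT-GFP. *Ctsh*, cathepsin H, held 12.6 ± 8.22 against 76.2 ± 3.91, and *Hvcn1*, a proton channel, 5.84 ± 0.917 against 32.2 ± 2.05. For each of these 4 genes all floxed libraries lay below all WT libraries in the row used. Groups apart in this direction held for 23.3% of all genes in Hoxa-flox against WT-GFP and 20.7% in Hoxa-del against WT-Cre. *Sppl2a*, a protease that clears the last fragment of the invariant chain, was not called in either comparison (-0.02, SE 0.21, adjusted p = 0.953, and -0.0069, SE 0.21, adjusted p = 0.985, limma). *Ctsl*, cathepsin L, was called in Hoxa-del against WT-Cre (-1.43, SE 0.29, adjusted p = 0.00392) but not in Hoxa-flox against WT-GFP (-0.73, SE 0.29, adjusted p = 0.0878, limma).

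Of 4 genes of class II surface turnover 2 were called lower in Hoxa-flox against WT-GFP and 3 in Hoxa-del against WT-Cre. The shares called lower over all genes were 13.5% and 14.2%. *March1*, the ubiquitin ligase that removes class II from the surface, held 0.883 ± 0.333 FPKM in Hoxa-flox against 3.39 ± 0.169 in WT-GFP (SD, n = 3; -1.24, SE 0.20, adjusted p = 0.000795, limma). The tetraspanin *Cd63* was lower in both comparisons and *Cd9* in Hoxa-del against WT-Cre (adjusted p = 0.00712, limma; 0.220 in Hoxa-flox against WT-GFP). The difference between these comparisons, which is the interaction, was -0.71 for *Cd9* (SE 0.38, adjusted p = 0.9997, limma) and was not called. Among 4 tested costimulation genes *Cd80*, a ligand of CD28, was lower in both comparisons (-2.09, SE 0.21, adjusted p = 2.85e-05, and -2.20, SE 0.21, adjusted p = 1.97e-05, limma). In Hoxa-flox against WT-GFP *Cd86* was lower and *Icosl* higher (-0.88, SE 0.26, adjusted p = 0.0262, and 0.79, SE 0.23, adjusted p = 0.0274, limma).

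Class I presentation, which shows peptides from the cytosol, was set against class II as the nearest pathway. Of 17 tested genes 2 were called higher in Hoxa-flox against WT-GFP (*Tap1* and *Psmb8*) and 0 lower, and 0 were called in Hoxa-del against WT-Cre. Over all genes tested 13.3% were called higher in Hoxa-flox against WT-GFP and 13.0% in Hoxa-del against WT-Cre. Of the 17 genes 12 were higher in every set A library than in every set B library, and 2 were lower in every one. The former held for 31.7% of all genes tested, and the share for the latter was not computed.

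Markers of other cells that carry class II were measured beside these results. B cell markers with a row (7 of 10) summed to 2.30 to 6.33 FPKM over all 12 libraries, with *Pax5*, their lineage factor, at or under 0.00935 FPKM in each. Among them *Vpreb3*, a pre-B cell gene, was called higher in Hoxa-flox against WT-GFP (1.34, SE 0.27, adjusted p = 0.00375, limma; mean 3.15 against 0.609 FPKM). *Cd22*, a B cell lectin, held 0.662 to 2.55 FPKM in WT libraries and at most 0.214 in floxed libraries. Dendritic cell markers (9 of 10) summed to 3.06 to 5.79 FPKM in WT and 4.84 to 14.6 in floxed libraries. *Clec10a* was the only one in the fit, and it was higher in Hoxa-flox against WT-GFP (1.62, SE 0.34, adjusted p = 0.00478, limma). *Flt3*, a receptor of dendritic cell and stem cell precursors, held 0.0701 to 0.168 FPKM in WT and 0.948 to 2.61 in floxed libraries. *Itgax*, which encodes CD11c, went the other way, at 1.23 to 1.72 FPKM in WT and 0.0927 to 0.719 in floxed libraries. The part of dendritic cell genes in the class II results was not tested.

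Most macrophage markers were lower in the floxed cells. Of 10 tested 7 were called lower in each comparison with WT cells and 0 higher. Over all genes 13.5% were called lower in Hoxa-flox against WT-GFP and 14.2% in Hoxa-del against WT-Cre. They summed to 335 to 383 FPKM in WT libraries, 251 to 260 in set A and 64.8 to 71.8 in set B. *C1qa*, *C1qb*, *C1qc* and *Msr1* held 20.9 to 56.2 FPKM in WT libraries and at most 0.461 in any floxed library. *Adgre1*, which encodes the surface marker F4/80, was not called in either comparison and held 41.1 to 48.2 FPKM in WT libraries, 95.3 to 99.4 in set A and 29.2 to 42.9 in set B. Of 10 neutrophil markers 8 and 5 were called lower, and of 6 tested stem and progenitor markers 5 were called higher and 1 lower in each comparison. The shares called higher over all genes were 13.3% in Hoxa-flox against WT-GFP and 13.0% in Hoxa-del against WT-Cre. The part of these differences in cell state in the class II results was not tested.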

How the data were processed

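RNA-seq libraries (ribosomal RNA depleted, stranded kit, sequenced on a NextSeq, per the labels' protocols) gave 1 deposited table of 28042 rows and 12 columns, 0 of them without a sample. The unit is not stated; the deposited values were taken as FPKM, the unit of Cufflinks, which is named with STAR, Cuffdiff 2.2.2.20150701, GRCm38 and mm10 per the submitters' processing notes. For the annotation, the scaling and the use of strand, no statement is given in the sources used here. For repeated symbols (1855 of 25263) the highest row by mean was taken. The 13169 symbols averaging 1 FPKM or more entered limma 3.58.1 (R 4.3.3; limma-trend) on log2(FPKM + 1) in 1 fit of 4 groups. On simulated data for Hoxa-flox against WT-GFP, 44% of genes given a log2 change of 1 were recovered and 91% of those given 2. For Hoxa-del against Hoxa-flox these were 46% and 88%, and for the interaction only 19% and 70%. The simulated libraries were drawn independently and did not hold the floxed sets, so recovery in the real floxed libraries may differ. Depth was estimated from whole-fragment steps in low values (mean under 0.3 FPKM) and transcript lengths of 1010 genes. Tables were made with scipy 1.17.1, numpy 2.4.6 and pandas 2.3.3 in Python 3.11.15. Coordinates are GENCODE M21, promoters RefSeq. Named genes were all members, up to 4 called genes per list with the smallest adjusted p and the genes most like the members' mean; genes named beyond these were chosen after their values were seen. Alternatives were a pseudocount of 0.1, no filter, equal upper quartiles, array weights, the 2 groups alone, a replicate term, a set term, the mean of repeated rows and each library left out. Members and lists were chosen with earlier results of these data known.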

Additional observations from a re-analysis of the deposited data

Results flagged for a closer look

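A second row named *H2-Eb1*, which was used only in the mean over repeated rows, had higher means in the floxed than in the WT cells. In Hoxa-flox its mean was 1.22 ± 0.635 FPKM, against 0.240 ± 0.114 in WT-GFP. After Cre the mean was 0.629 ± 0.277 FPKM in the floxed and 0.259 ± 0.145 in the WT cells (SD, n = 3 each), and the libraries overlapped, Hoxa-del 1 at 0.317 FPKM and WT-Cre 2 at 0.412. This row runs opposite to the *H2-Eb1* row reported above, which was lower in the floxed cells. What transcript the second row holds is not given in the sources used here.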

How the results depend on the processing

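*Cd74*, *H2-Aa* and *H2-Eb1* stayed lower and past the threshold in both comparisons of floxed with WT cells under all 13 alternatives, with changes from -4.64 to -1.16. Array weights moved the number of members called from 3 to 6 in Hoxa-flox against WT-GFP, from 0 to 5 in Hoxa-del against Hoxa-flox and from 0 to 4 for the interaction, the difference of the Cre changes; the cause was not tested. *H2-DMa* in Hoxa-flox against WT-GFP also passed with the 2 groups alone (adjusted p = 0.0476, limma). Directions reversed for changes that were not called in the fit reported above, and 1 of these reversals was itself called, the interaction of *H2-Aa* with array weights (adjusted p = 0.0361, limma). In Hoxa-del against Hoxa-flox *H2-Ab1* was 0.069 with a set term, *Cd74* 0.0056 with the mean of its rows and *Ciita* -0.012 to 0.018 with libraries left out. In WT-Cre against WT-GFP *H2-DMa* was 0.010 with equal upper quartiles and -0.12 to 0.10 with libraries left out. In Hoxa-del against WT-Cre *H2-DMb1* was -0.28 with array weights, and with libraries left out *H2-DMb1* ran from -0.34 to 0.25 and *H2-DMa* from -0.033 to 0.998, both negative without Hoxa-del 2. The interaction was, with a pseudocount of 0.1, -0.36 for *H2-Aa*, -0.0091 for *H2-Eb1* and -0.37 for *Cd74*. With array weights it was -0.90, -0.18 and -0.28 for these genes, and with a set term 0.48 for *H2-Ab1* and 0.18 for *H2-DMb1*. With libraries left out it ran from -0.42 to 0.35 for *H2-Aa*, -0.67 to 0.39 for *H2-Ab1*, -0.023 to 0.35 for *H2-Eb1*, -0.17 to 0.23 for *Cd74* and -0.53 to 0.058 for *H2-DMb1*. Whether the replicate numbers pair the samples was not settled. Between Hoxa-flox and Hoxa-del the correlation of deviations was -0.30 for replicate 1, 0.60 for replicate 2 and 0.72 for replicate 3. Replicates 2 and 3 each had both libraries in the same set, and replicate 1 did not. Between WT-GFP and WT-Cre the correlations were -0.01 to 0.09. With the replicate number as a block the members called remained 3, 3, 0, 0 and 0 in number, and *Cd74* was -3.68 and -3.65 against WT. Over all genes Hoxa-del against Hoxa-flox gave 4 calls, 1 with the 2 groups alone, 7 without a filter, 5173 with array weights and 2 to 787 with libraries left out. WT-Cre against WT-GFP gave 2 calls, 5 without a filter, 18 with array weights, 5 with the 2 groups alone, 0 with the block and 0 to 7 with libraries left out. The interaction gave 1 call, 4 without a filter, 3452 with array weights and 1 to 5 with libraries left out, and Hoxa-flox against WT-GFP gave 3525 and 9186 with array weights. Depth limits *Ciita*, at 1 to 4 fragments per floxed library.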
